A study of Mus musculus with 10 samples.

Results

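The GALNT genes encode polypeptide N-acetylgalactosaminyltransferases, the Golgi enzymes that place the first sugar of mucin-type O-glycans on proteins. The 8 members described here are Galnt1, Galnt2, Galnt3, Galnt4, Galnt7, Galnt10, Galnt11 and Galnt12. They were found by their symbols in the array's annotation, which gave exactly 1 of these symbols to 20 of the 45037 probe sets that are not array controls. All 8 genes were among the 18193 genes with a probe set, and the brightest probe set of each, by its mean over all 10 arrays, was taken as its main one.

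The members were measured in BMEL cells, a line of bipotential progenitors from the embryonic mouse liver whose cells can become either hepatocyte-like or biliary-like. One group of 5 arrays came from cells transfected with a locked nucleic acid (LNA) oligonucleotide antisense to the microRNA miR-30a. The other 5 arrays came from cells given a scrambled control oligonucleotide, and both groups received Oligofectamine and an LNA oligonucleotide. The sources used here give no sequence or dose of the oligonucleotides and no time after transfection. Nothing in the labels ties a replicate to its own culture, so p-values here reflect the spread between arrays, and that spread may be technical. These arrays measured messenger RNA, and no value for miR-30a itself was used here, so its depletion was not checked.

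Mucin-type glycosylation starts when a GALNT enzyme transfers N-acetylgalactosamine (GalNAc) from its nucleotide-bound form, UDP-GalNAc, to a serine or threonine. Some members act on bare peptide, while others prefer peptides that already carry a sugar, and later enzymes extend and cap the chain. The family is of interest in this experiment because Galnt7 is a reported target of miR-30. In human melanoma cells, GALNT7 was described as repressed by members of the miR-30 family. A microRNA recognises its targets mainly through its seed, bases 2 to 8, and lowers the level or translation of the matching messenger RNA.

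The sequence of miR-30a-5p is shown because the antisense oligonucleotide was aimed at miR-30a, and 3 related mature miR-30 sequences are set beside it. The reference used here held no mature sequence of miR-30b or miR-30d, so those shown are not the whole family. RefSeq sequences of the mouse GRCm38.p6 build are given from 5′ to 3′, with the seed in capitals.
miR-30a-5p: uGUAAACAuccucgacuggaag
miR-30c-5p: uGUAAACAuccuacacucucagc
miR-30e-5p: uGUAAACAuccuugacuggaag
miR-30f: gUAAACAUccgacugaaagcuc
Counted from 1 at the 5′ end, miR-30e-5p differed from miR-30a-5p by 1 substitution, C13U. The miR-30c-5p sequence differed at 5 of the positions both have, with C13A as the first. Of the 4 microRNAs, 3 have the same seed, namely miR-30a-5p, miR-30c-5p and miR-30e-5p. The differences of miR-30c-5p and miR-30e-5p from miR-30a-5p begin at position 13, outside the seed. The miR-30f seed is shifted by 1 base against that of the others. The miR-30a-5p sequence lies at chr1:23272274-23272295 on the plus strand. The miR-30e-5p sequence lies at chr4:120772660-120772681 on the minus strand.

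None of the 8 GALNT genes differed between the groups past an adjusted p of 0.05 in the limma test over 12633 genes. The test called 193 of all genes, or 1.53%, so 0 of 8 is close to that background. With the replicate number as a block, 3.05% of all genes and again 0 of the 8 members passed. The deposited values are on a log2 scale, and changes are antisense minus scrambled. The members' changes ran from -0.07 for Galnt11 to 0.11 for Galnt3, and 5 lay above 0 and 3 below. Over all genes tested, 55.1% lay above 0. The median change was 0.032 for the members and 0.0084 for all genes, and the median size of the change, sign ignored, was 0.045 for the members and 0.047 for all genes. All 8 main probe sets lay above the level of 4.559 under which genes were left out of the test. The 95% intervals of the 8 changes together spanned 0.87-fold to 1.14-fold. In simulated data with 200 of the 12633 genes changed, this procedure recovered 60% of changes of 0.25 and 95% of changes of 0.5. The simulated noise was independent between genes and arrays, which real arrays need not be. No change under 0.25 was simulated, so recovery of changes as small as the members' is not known.

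**Figure D1:**
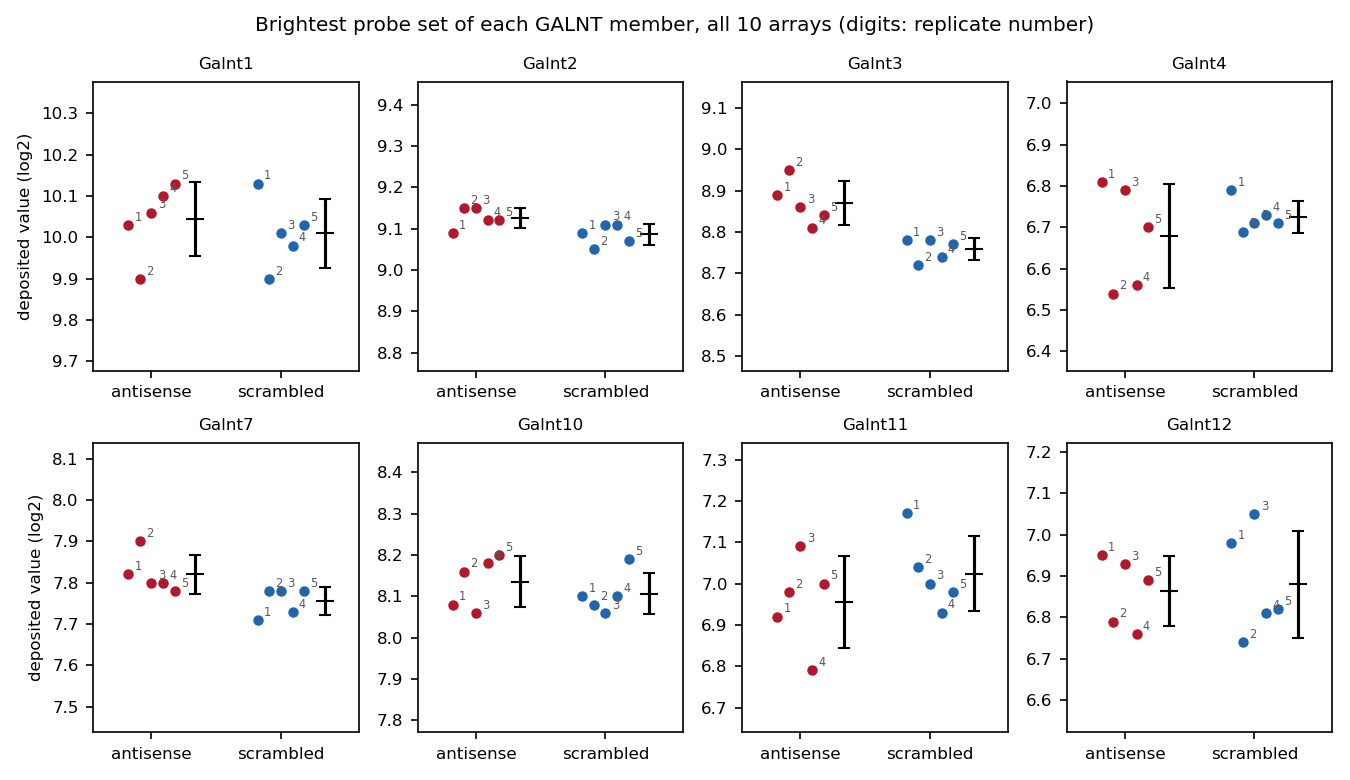
Deposited log2 value (y axis) of the main probe set of each GALNT gene in the 5 antisense arrays (red, left) and the 5 scrambled arrays (blue, right), with the replicate number beside each point and the mean ± SD in black. All panels span the same height in log2 units, and the groups overlap in every panel except that of Galnt3, where antisense arrays lie from 8.81 to 8.95 and scrambled arrays from 8.72 to 8.78.

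Among the transferases that start glycans on bare peptide, Galnt1 and Galnt2 are the broadly expressed ones. Galnt1 (main probe set 1423236_at) read 10.03, 9.90, 10.06, 10.10 and 10.13 in antisense arrays 1 to 5, against 10.13, 9.90, 10.01, 9.98 and 10.03 in scrambled arrays 1 to 5. The groups covered the same span, and array 2 was the lowest of each. The change was 0.03 (SE 0.053, 95% interval -0.08 to 0.15, limma adjusted p = 0.864).

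Galnt2, which in humans has been tied to plasma lipid levels, read in its main probe set 1452182_at 9.09, 9.15, 9.15, 9.12 and 9.12 in antisense arrays and 9.09, 9.05, 9.11, 9.11 and 9.07 in scrambled arrays. Antisense arrays 2 to 5 lay above every scrambled array, and antisense array 1 lay within the scrambled range. The change of 0.04 (SE 0.034, 95% interval -0.03 to 0.11) had a limma adjusted p of 0.699.

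Galnt3 encodes the enzyme that protects the phosphate hormone FGF23 from cleavage. Its main probe set, 1417588_at, read 8.89, 8.95, 8.86, 8.81 and 8.84 in antisense arrays, against 8.78, 8.72, 8.78, 8.74 and 8.77 in scrambled arrays. Each antisense array lay above each scrambled array, and Galnt3 was the only member whose groups did not overlap. Separation in either direction held for 3.92% of all genes tested, and with antisense higher for 2.74%. The means were 8.87 ± 0.054 in antisense arrays and 8.76 ± 0.029 in scrambled arrays (SD, n = 5 each). The change of 0.11 (SE 0.038, 95% interval 0.03 to 0.19) corresponds to 1.08-fold and did not pass over all genes (limma adjusted p = 0.203, unadjusted p = 0.0111). The exact two-sided permutation test over the 10 arrays gave an unadjusted p of 0.00794, the smallest it can give.

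Galnt11 (1424748_at), an enzyme linked to Notch1 glycosylation in frog and human, read 6.92, 6.98, 7.09, 6.79 and 7.00 in antisense arrays and 7.17, 7.04, 7.00, 6.93 and 6.98 in scrambled arrays. The ranges overlapped, with antisense array 4 the lowest of the 10 and scrambled array 1 the highest. Its change of -0.07 (SE 0.060, 95% interval -0.20 to 0.06) was the lowest of the members (limma adjusted p = 0.704).

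Galnt4, Galnt7, Galnt10 and Galnt12 encode follow-up transferases, which work well on peptides that already carry GalNAc. Galnt7 (1426908_at), the reported miR-30 target, read 7.82, 7.90, 7.80, 7.80 and 7.78 in antisense arrays and 7.71, 7.78, 7.78, 7.73 and 7.78 in scrambled arrays. The groups met at 7.78, and antisense arrays 1 to 4 lay above all scrambled arrays. The means were 7.82 ± 0.049 in antisense arrays and 7.76 ± 0.033 in scrambled arrays (SD, n = 5 each). The change of 0.06 (SE 0.037, 95% interval -0.02 to 0.14) had a limma adjusted p of 0.554. As a fold the interval ran from 0.99 to 1.10, so a rise of more than 1.10-fold in this probe set lay outside it. In the limma fit over all probe sets its upper end was 1.11-fold. There the interval of another Galnt7 probe set, 1425581_s_at, reached 1.22-fold, so this is no limit for the gene. The exact two-sided permutation test gave an unadjusted p of 0.0317 for Galnt7. That test fell under 0.05 before adjustment for 3 of the 8 members (Galnt2, Galnt3 and Galnt7), against 12.3% of all genes tested, while the unadjusted limma p did so for 1 of 8, Galnt3, against 12.9%.

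Galnt10 (1418195_at) read 8.08, 8.16, 8.06, 8.18 and 8.20 in antisense arrays, against 8.10, 8.08, 8.06, 8.10 and 8.19 in scrambled arrays. The scrambled range lay almost wholly inside the antisense one. The change was 0.03 (SE 0.042, limma adjusted p = 0.838).

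Galnt4 (1455915_at) read 6.81, 6.54, 6.79, 6.56 and 6.70 in antisense arrays, against 6.79, 6.69, 6.71, 6.73 and 6.71 in scrambled arrays. Antisense arrays 2 and 4 lay below all others, and the antisense SD was 0.13 against 0.041 in scrambled arrays. Its change was -0.05 (SE 0.057, limma adjusted p = 0.794). In the reference annotation the Galnt4 locus overlaps another protein-coding gene, Poc1b, and the positions of the probes were not used here.

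Galnt12, linked to colorectal cancer in humans, had a single probe set, 1437760_at, which read 6.95, 6.79, 6.93, 6.76 and 6.89 in antisense arrays. It read 6.98, 6.74, 7.05, 6.81 and 6.82 in scrambled arrays. The change was -0.02 (SE 0.063, 95% interval -0.15 to 0.12, limma adjusted p = 0.956), and its sign changed when any 1 of 4 arrays was left out.

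The other 12 probe sets of the members did not pass either, and probe sets of 1 gene differed in their changes. Over all 45037 probe sets with no filter on dim ones, limma called 0.266%, and 0 of the 20 member probe sets. With the replicate block it called 0.429%, and again 0 of the 20. Of the 20, 16 had a change above 0, against 50% of all probe sets, but probe sets of 1 gene share their transcript and are not independent. All probe sets include the dim ones, while 18 of the 20 lay above the filter level. Among the genes tested, all above that level, 55.1% had a change above 0. The unadjusted limma p fell under 0.05 for 5 of the 20, against 9.35% of all probe sets and 12.9% of the genes tested.

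The highest change was that of the dimmest Galnt10 probe set, 1440493_at, at 0.20 (SE 0.058, adjusted p = 0.234 by limma over all probe sets). It read 6.64 to 6.79 in antisense arrays and 6.41 to 6.67 in scrambled arrays, and was higher with antisense in 5 of 5 same-numbered pairs. The remaining Galnt10 probe set, 1418194_at, was at 0.07 (SE 0.062). For Galnt2 the other probe sets, 1426756_at and 1425610_s_at, were at 0.12 (SE 0.051) and 0.16 (SE 0.070), above the main one at 0.04. Both were higher with antisense in 5 of 5 pairs, with adjusted p of 0.458 and 0.481 by limma over all probe sets.

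Galnt7 had a second probe set, 1452232_at, at 0.01 (SE 0.046), with antisense arrays from 7.35 to 7.52 and scrambled arrays from 7.37 to 7.46. The third, 1425581_s_at, was at 0.15 (SE 0.066, adjusted p = 0.510 by limma over all probe sets), with 5.96 to 6.25 in antisense and 5.88 to 6.09 in scrambled arrays. None of the 3 Galnt7 probe sets passed. A name ending in _s_at marks a probe set whose probes can match more than 1 transcript.

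A second Galnt3 probe set, 1427749_at, was at 0.14 (SE 0.078), with overlapping ranges of 6.13 to 6.39 in antisense and 5.95 to 6.32 in scrambled arrays. The third, 1417589_at, was at 0.03 (SE 0.053) and lay under the filter level. The second Galnt1 probe set was at 0.05 (SE 0.055), and the other Galnt4 probe sets were at 0.02 and -0.02. The dim second probe set of Galnt11 was at 0.05 (SE 0.084), opposite in sign to its main one.

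**Figure D2:**
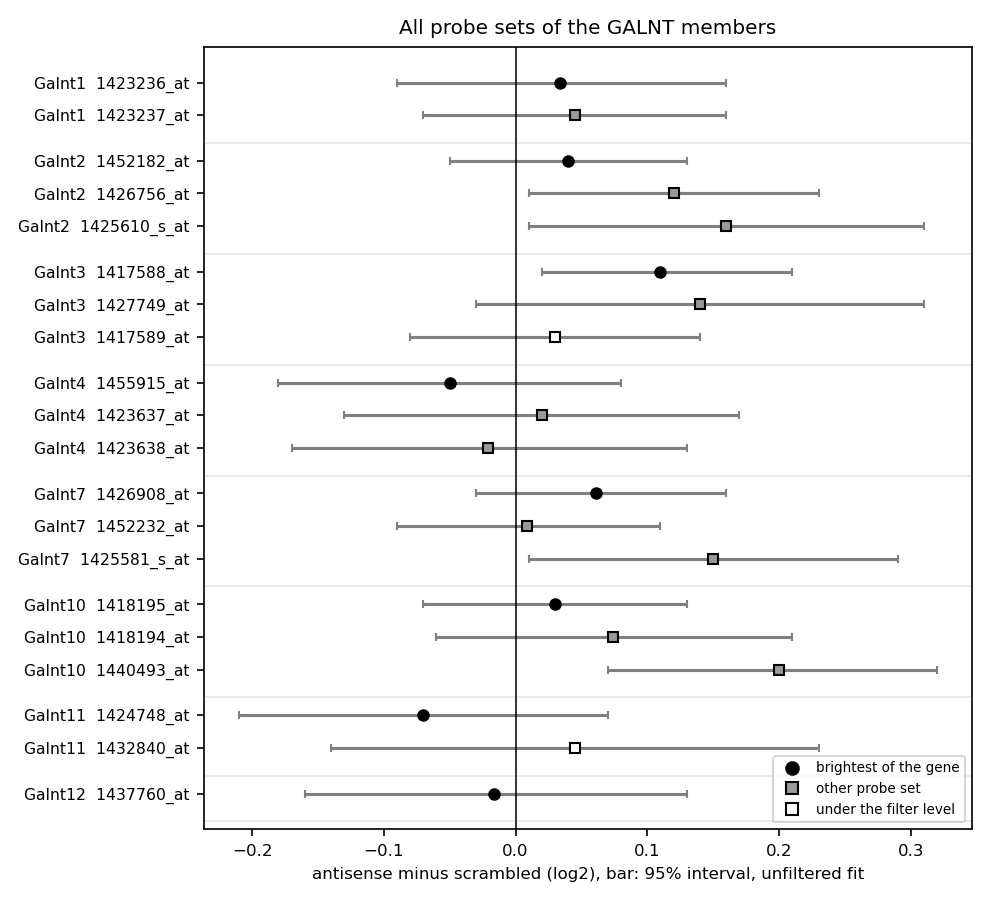
Change between antisense and scrambled arrays (x axis, log2) of each of the 20 probe sets of the GALNT genes, with 95% intervals from the limma fit over all probe sets. Circles are the main probe sets, squares the others and open symbols those under the filter level. The interval of 1440493_at of Galnt10 reaches 0.32, the highest of all, and no probe set has an adjusted p under 0.05.

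The genes whose array-to-array deviations from the group means were most like those of Galnt7 were Tfrc, Inhbc, Tinagl1, Ccn2 and Foxred1. Their Pearson correlations with Galnt7 ran from 0.904 to 0.950 across the 10 arrays, as the highest among 12632 other genes. For Galnt3, the member with the smallest p, they were Akap11, Sgce, Arfgef1, Gm11944 and Stt3b, with correlations from 0.881 to 0.950. The other GALNT members correlated with Galnt7 at values from -0.826 for Galnt1 to 0.597 for Galnt3. Arrays share their normalization, and such values are a description of these 10 arrays. None of the 10 most correlated genes passed the test between the groups.

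The rest of the GALNT family was measured less well. Of the 11 further family genes 10 had a probe set and 3 lay above the filter level, and none of these 3 passed (medians: 0.033 for the 3 genes, 0.0084 for all genes). Galnt6, the closest relative of Galnt3, was at 0.03 (SE 0.066), Galnt9 at 0.08 (SE 0.057) and Galnt16 at 0.02 (SE 0.065). The other 7 were dim, and among them Galntl6 was at -0.20 (adjusted p = 0.296 by limma over all probe sets), with 3.09 ± 0.11 in antisense and 3.29 ± 0.097 in scrambled arrays (SD, n = 5 each).

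Of 11 tested genes that extend, branch or cap O-GalNAc chains, 1 rose and none fell, against 1.16% of all genes tested that rose and 0.372% that fell. The one that rose was St3gal2, a sialyltransferase that caps galactose on the core chain. It read 7.81, 8.09, 8.07, 7.99 and 8.02 in antisense arrays and 7.68, 7.79, 7.66, 7.61 and 7.61 in scrambled arrays, without overlap. Its change of 0.32 (SE 0.057) corresponds to 1.25-fold (limma adjusted p = 0.0140). A second St3gal2 probe set was at 0.24 (SE 0.053), also without overlap, with 7.18 to 7.34 in antisense and 6.91 to 7.11 in scrambled arrays. The dimmest one was at 0.16 (SE 0.080) with overlapping groups. In the limma fit over all probe sets these had adjusted p of 0.103 and 0.591, and the main one 0.0475. With the replicate block in that fit, the main St3gal2 probe set had an adjusted p of 0.0564 and did not pass.

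The gene for the core 1 galactosyltransferase, C1galt1, was at 0.13 (SE 0.058, limma adjusted p = 0.391), and its other probe sets were at -0.01 and 0.05. The sialyltransferase gene St6galnac4 was at 0.13 (SE 0.077). The median change of the list was -0.04, with 4 of 11 above 0.

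Of 8 genes that supply UDP-GalNAc, none passed in either direction (median change 0.01). The UDP-galactose transporter gene Slc35a2 was at 0.11 (SE 0.042, limma adjusted p = 0.272), and its other probe sets lay between -0.03 and 0.20. Gfpt1, the first and rate-limiting enzyme of the hexosamine pathway, was at -0.10 (SE 0.042, limma adjusted p = 0.341), with 10.16 ± 0.037 in antisense and 10.26 ± 0.073 in scrambled arrays (SD, n = 5 each). The groups of Gfpt1 did not overlap in this probe set, while a second above the filter was at 0.07. The sugar kinase gene Galk2 was at 0.04 (SE 0.055).

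Of 10 tested mucins and mucin-like glycoproteins 1 rose and none fell, against 1.16% of all genes tested that rose and 0.372% that fell. A further 8 with a probe set were too dim to test. The largest difference among these was that of Muc3, at -0.25 (adjusted p = 0.145 by limma over all probe sets). It read 4.09 to 4.35 in antisense and 4.31 to 4.56 in scrambled arrays. Dim Muc15 and Muc16 lay above 0, at 0.08 and 0.01. The tested gene that rose was Cd44, the hyaluronan receptor and an adhesion glycoprotein, and no tested Muc gene passed in the main test. Cd44 read 11.54, 11.49, 11.55, 11.61 and 11.48 in antisense arrays and 11.33, 11.33, 11.33, 11.30 and 11.36 in scrambled arrays. The groups did not overlap, and the change was 0.21 (SE 0.037, limma adjusted p = 0.0165). Without antisense replicate 3 the adjusted p was 0.0550. The other bright Cd44 probe sets were at 0.15 (SE 0.049) and 0.22 (SE 0.077), with adjusted p of 0.282 and 0.347 by limma over all probe sets. In that unfiltered fit the main Cd44 probe set had an adjusted p of 0.0822 and did not pass.

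The membrane mucin gene Muc13 was at -0.23 (SE 0.11, limma adjusted p = 0.388), with 7.65 ± 0.22 in antisense and 7.88 ± 0.19 in scrambled arrays (SD, n = 5 each). It was lower with antisense in every same-numbered pair and, among genes, passed with the replicate block (limma adjusted p = 0.0437). With that block in the fit over all probe sets it did not pass (limma adjusted p = 0.144). Without antisense replicate 2 its change was -0.143. Its second probe set was at -0.06 (SE 0.066). Muc2, the gel-forming intestinal mucin gene, was at -0.13 (SE 0.099), and the median of the list was -0.007. Of 5 tested goblet and gastric secretory markers, 2 fell and 3 did not pass, against 0.372% of all genes tested that fell. The lists were chosen with earlier results of these data known. Tff3 (-0.46) and Gkn2 (-0.81) fell, with limma adjusted p of 0.0358 and 0.0125, while Muc2 was at -0.13, Spink4 at -0.10 and Muc5ac at 0.01. The mean of the 6 markers with a probe set lay from 5.35 to 5.58 in antisense and from 5.63 to 5.92 in scrambled arrays. Gkn2 and Tff3 had the largest changes of the 6, and Agr2, under the filter level, was at -0.006. The part of these markers in the values of the mucin genes was not tested.

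Of 9 genes that start other O-linked glycans none passed (median 0.018). Ogt, the enzyme of nuclear and cytoplasmic O-GlcNAc, was at -0.09 (SE 0.067), Pofut1, the O-fucosyltransferase of Notch, at -0.08 (SE 0.048) and Pomt2, an O-mannosyltransferase gene, at 0.11 (SE 0.052). Other probe sets of Ogt were between -0.16 and 0.04, and those of Pofut1 were at -0.05 and 0.08.

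**Figure D3:**
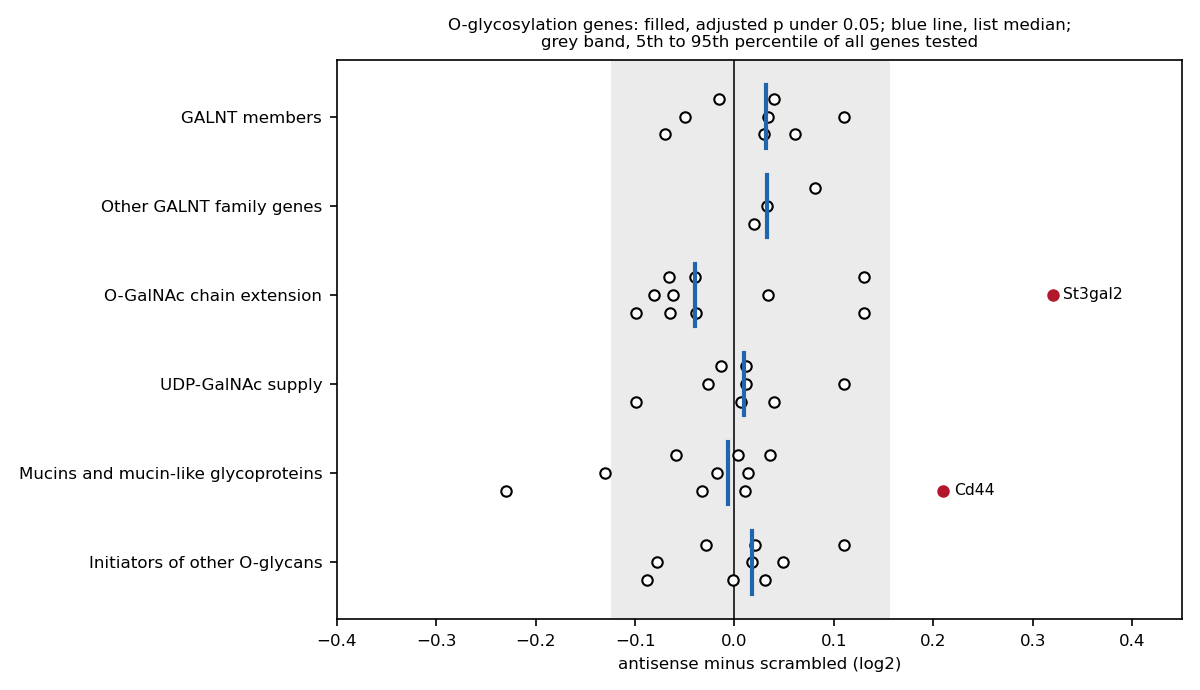
Change between antisense and scrambled arrays (x axis, log2) of the tested genes in each list of O-glycosylation genes (y axis). Filled points passed the limma test over all genes, blue lines are list medians and the grey band runs from percentile 5 to percentile 95 of all genes tested. St3gal2 at 0.32 and Cd44 at 0.21 are the filled points, and the 8 GALNT genes lie between -0.07 and 0.11.

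**Figure D4:**
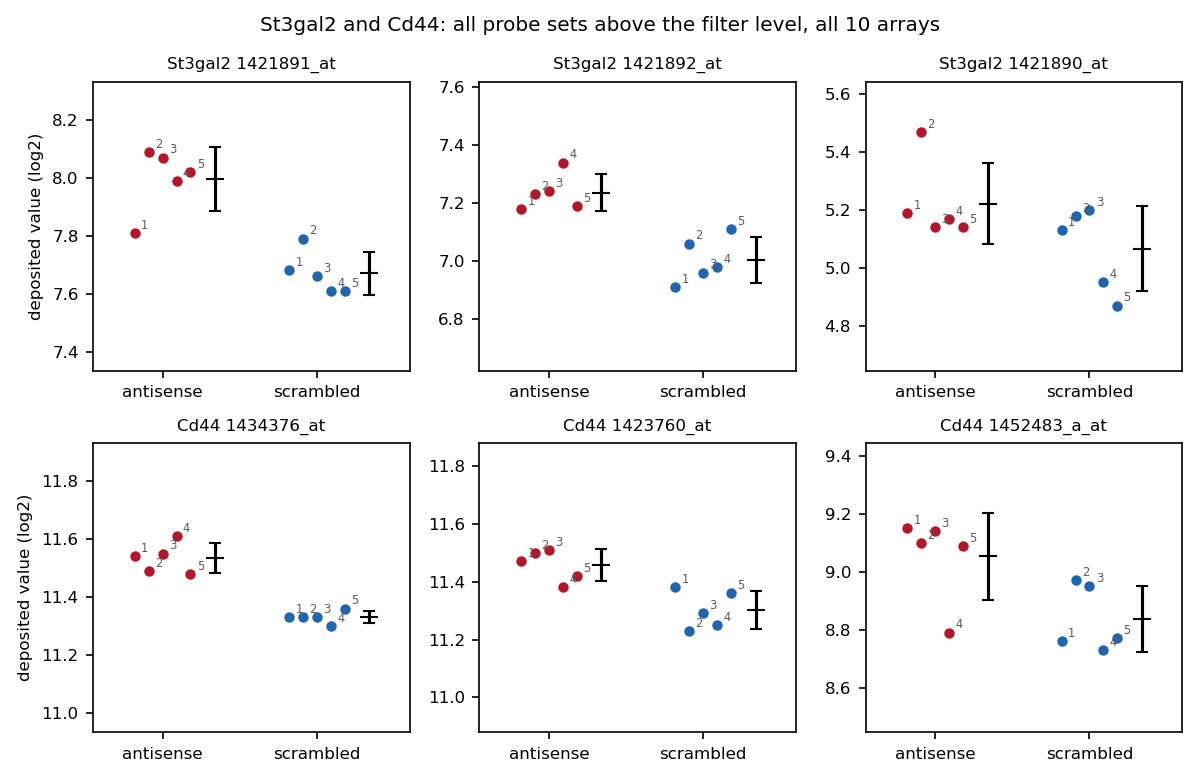
Deposited log2 value (y axis) of each St3gal2 and Cd44 probe set above the filter level in the 5 antisense arrays (red, left) and the 5 scrambled arrays (blue, right), with the mean ± SD in black. The groups are apart in the first 2 panels of St3gal2 and in the first of Cd44, where antisense arrays lie from 11.48 to 11.61 and scrambled arrays from 11.30 to 11.36.

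Among markers with a probe set, 8 of 9 for hepatoblasts and hepatocytes and 4 of 4 biliary ones lay above the filter level. None of these passed the test. Of the 18193 genes with a probe set, 12633 lay above that level. So did 5 of 6 mesenchymal and stellate, 2 of 5 endothelial and 3 of 5 blood and macrophage markers. Lying above the filter level therefore does not identify the cells. The keratin gene Krt19 averaged 13.48 in antisense and 13.49 in scrambled arrays, and the liver transcription factor gene Hnf4a 10.67 and 10.69. The hepatocyte gene Alb lay close to the filter level, at 4.70 in antisense and 4.73 in scrambled arrays. Dlk1, a hepatoblast marker, lay under the filter level. Ttr, a secreted liver protein gene, had the largest difference of the listed genes tested, at -1.17 (SE 0.27), or 0.45-fold, with 7.62 ± 0.57 in antisense and 8.79 ± 0.51 in scrambled arrays (SD, n = 5 each). It was lower with antisense in 5 of 5 same-numbered pairs, with a limma adjusted p of 0.0574, or 0.000812 with the replicate block. Apoa1, another secreted liver protein gene, was at -0.21 (limma adjusted p = 0.213). Sox9, a biliary transcription factor gene, was at 0.17 with groups that did not overlap (limma adjusted p = 0.0662). The part of these differences in the values of the GALNT genes was not tested. Of 3 blood and macrophage markers tested, 1 rose, against 1.16% of all genes tested. It was Cd68, by 0.39 (limma adjusted p = 0.0176), while Csf1r was at 0.05 and Fcgr1 at -0.06. Ptprc and Adgre1 lay under the filter level, at -0.22 and 0.09. Array medians lay between 5.21 and 5.24, correlations between arrays between 0.996 and 0.9983, and no 2 arrays held identical values.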

How the data were processed

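Total RNA was amplified, biotin-labelled and measured on 10 single-colour Affymetrix arrays, per the labels' protocols. The authors deposited 1 log2 value for each probe set on each array. That the scale is log2 was inferred from the range, since the highest value was 14.1827. The sources used here name no method of background correction, normalization or summary. The number of arrays limits the precision.

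Of 45101 probe sets, 64 controls were set aside. For the rest the platform annotation gave 1 symbol for 34945, several for 932, and does not list 9160. Symbols were updated through gene identifiers, which matched for 34741. For each gene the probe set with the highest mean was kept, and genes under the 40th percentile of all probe set means (4.559) were not tested. The test was limma 3.58.1 under R 4.3.3 (two-sided, Benjamini-Hochberg over all genes, threshold 0.05). Every probe set was also fitted without a filter. SDs and intervals are over arrays. The procedure was tested on simulated data in 10 runs, with 4.83% of calls false.

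The members and lists were chosen with earlier results of these data known. The text names all members, the 3 genes of each list with the smallest p and any called one, and the 5 genes most correlated with Galnt7 and with the member of smallest p. Markers and dim genes outside this rule were named after their values were seen. Endothelial and stellate markers had no call (2 and 5 tested).

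Both groups carry replicate numbers 1 to 5. After subtraction of group means, same-numbered arrays correlated at 0.172, 0.377, 0.112, 0.152 and 0.335 over the genes tested, against -0.312 to 0.231 for other pairs. The values 0.377 and 0.335 lay above the range of the other pairs, while 0.172, 0.152 and 0.112 lay within it. The mean of the other pairs was -0.0594. Subtraction of group means ties the pairs together, so higher same-numbered values force lower ones elsewhere. That mean is therefore no independent baseline. No label explains the numbers, so whether same-numbered arrays form pairs is not known. The main test is unpaired, and the block is given beside a result where it changes the call. Alternatives were a replicate block, quantile normalization, median centring, other filters, the mean of a gene's probe sets, a trended robust prior, array weights and leaving out each array.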

Additional observations from a re-analysis of the deposited data

Results flagged for a closer look

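In 1 of the 40 sets of 5 arrays formed by the 20 member probe sets and both groups, an array stood apart from the others. Scrambled replicate 3 read 5.78 for the Galnt4 probe set 1423637_at, while the other scrambled arrays lay between 6.08 and 6.16. Chance alone flags about 1 set in 20, so 1 of 40 is no more than chance gives. Without this array the change of the probe set was -0.05 in place of 0.02, and it did not pass the test either way.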

How the results depend on the processing

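Under all 18 alternatives no GALNT gene passed the limma threshold, with adjusted p no lower than 0.148 in 144 fits of a member, and no member probe set passed with the replicate block or with any array left out. The replicate block changed no member's call. Of these 144 fits 140 kept the sign. The other 4 were of Galnt12, whose change ran from -0.052 to 0.026 with 1 array left out, and the cause was not tested. The members' median change ran from 0.014 to 0.056. Among other named genes, the sign turned with 1 array left out for Galnt6 (-0.016 to 0.071), Galnt16 (-0.021 to 0.057) and Galk2 (-0.002 to 0.082). St3gal2 passed under all 18 alternatives of the fit over genes, with adjusted p up to 0.0448. Cd44 passed in all but 1, without antisense replicate 3. With the block among genes, the changes of Muc13 (-0.23) and of the liver marker Ttr (-1.17) passed, and no other listed gene's call changed. In the fit over all probe sets the block ended the call of St3gal2 (adjusted p = 0.0564).

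The number of genes called over the whole table was 193, or 385 with the replicate block, 303 with a trended robust prior and 344 with array weights. With 1 array left out it ran from 92 to 201, and it was 95, 92 and 123 without antisense replicates 3, 4 and 5 and 101 without scrambled replicate 3. The cause of these differences was not tested. Dim probe sets have no order, and changes there are uncertain.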
